A study of Mus musculus with 6 samples.

Results

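Glutamate is the main excitatory transmitter of the brain, and it acts on ion channels of the AMPA, NMDA and kainate families and on G protein-coupled metabotropic receptors. The delta receptors are counted with the glutamate receptor genes here. AMPA receptors carry most fast excitatory current, and kainate receptors adjust release and excitability. NMDA receptors pass calcium and, in most forms, conduct well only with depolarisation. The transmembrane AMPA receptor regulatory proteins (TARPs, encoded by Cacng genes) modulate the traffic or gating of AMPA receptors, and the NETO proteins modulate kainate receptors. Of 32 genes listed by name for these receptors and their auxiliary subunits, 31 had a row with a single gene symbol in the deposited table, out of 19938 genes measured that way. Grin1, the obligatory NMDA receptor subunit, was not analysed here. The measured genes were 4 AMPA subunits, 6 NMDA subunits, 5 kainate subunits, 1 delta receptor, 7 metabotropic receptors, 6 TARPs and 2 NETO proteins. Each was taken by its symbol rather than by a measured value, though the list was chosen with earlier results of these data known. Cacng2, which had more than 1 row, was represented by its brightest row.

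Expression was measured on 6 Affymetrix arrays from primary brain cultures of OF1 mouse embryos at embryonic day 17, which had been left to differentiate with fetal calf serum into a mixture of neurons and glia. The treated group was 3 cultures that received 10 nM 1,25-dihydroxyvitamin D3 (1,25D), the active vitamin D hormone, in serum-free medium without growth factors. The control group was 3 cultures that received vehicle in the same medium. The labels call the arrays of a group biological replicates and number them 1 to 3, but do not say whether equal numbers mark a shared culture, and how long the treatment lasted was not stated in the labels read here. Values are log2 of the authors' RMA intensities, and for arrays the number of replicates limits the precision. Brightness depends on each gene's probes, so intensities are compared between arrays and never as amounts between genes.

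The arrays were alike in overall brightness, with a median intensity over genes of 240.8 to 252.9 in 1,25D cultures and 240.4 to 251.0 in controls. Arrays of equal replicate number deviated from their group means together (correlation across genes 0.46 to 0.65), so differences are also given by replicate number and with the number as a block. The 2 arrays numbered 1 held identical values in 1514 of 35556 rows, against 1 to 25 rows for other combinations of a treated and a control array, and 0 of the 31 genes was among them. Of the marker genes 6 were (Stmn2, Nefl, Tbr1, Neurod2, Eomes and Cdh5), and of the partner genes 2 (Cnih3 and Plcb1). Without these identical genes the correlation for number 1 was 0.52, against 0.51 with them. As a check of the labelled cell types, and as brightness of probe sets rather than amounts, the 10 astrocyte markers lay between the 47.4th (S100b) and 99.95th (Fabp7) percentile of genes in controls. The 13 neuron markers lay between the 11.7th (Nefm) and 94.6th (Map2), with a median at the 51.1st. The dimmest markers of glutamatergic neurons were Neurod6, Slc17a6 and Tbr1, all below the lower quartile of genes. Across 9 lists with 78 measured cell type markers, 0 passed the test for the treatment without or with the block, and list medians ran from -0.21 to 0.09. The lowest was that of ciliated ependymal cells, whose 8 markers summed to 3293, 4573 and 4213 in 1,25D cultures, against 5834.5, 5719 and 2911 in controls.

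None of the 31 glutamate receptor and auxiliary genes passed the test between 1,25D and control cultures (limma, Benjamini-Hochberg adjusted p under 0.05 over all genes), against 0.0251% of all genes. With the replicate block the count was also 0, against 0.0903% of all genes. At an unadjusted p under 0.05 limma gave 2 of the 31 without the block (1.48% of all genes) and 3 with it (5.78% of all genes). The lowest adjusted p among the 31 was 1.00 without the block and 0.226 with it. Of the 31, 19 had a higher mean and 12 a lower mean in 1,25D cultures, and the median log2 difference was 0.02, against 0.0074 over all genes. Of all 19938 genes, 10563 had a higher and 9375 a lower mean. The median by replicate number was -0.03, 0.02 and 0.12 for numbers 1, 2 and 3. RNA was taken from whole cultures, so fewer cells of a type and less RNA per cell cannot be told apart.

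The precision behind these counts differed between the fits. The median standard error was 0.19 for the 31 genes and 0.12 for all genes without the block, and 0.10 and 0.09 with it. Without the block, the 95% interval of the difference lay within 1.5-fold of no change in either direction for 17 of the 31 genes and within 2-fold for 29, against 88.1% and 98.0% of all genes. With the block these counts were 27 and 30, against 95.9% and 99.4% of all genes. Grin2c and Gria2 were the 2 genes whose interval without the block reached beyond 2-fold, and Grin2c was the single one with it.

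**Figure D1:**
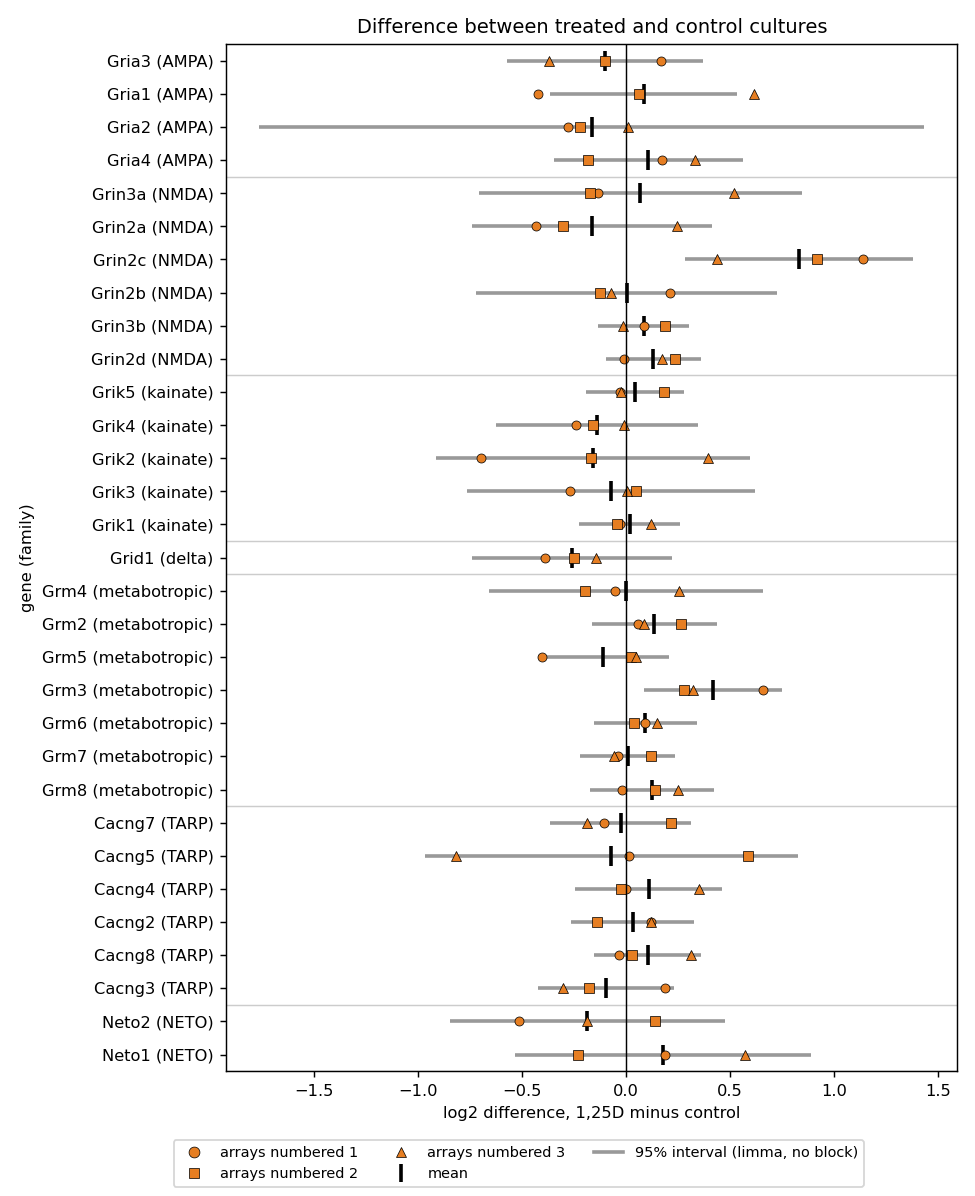
Log2 difference between 1,25D and control arrays (horizontal axis) for each of the 31 genes (vertical axis, by family). Orange symbols are the differences at replicate numbers 1, 2 and 3, black ticks their mean and grey bars the 95% interval of the limma fit without the block; the intervals of Grin2c and Grm3 lie above 0 and that of Gria2 is the widest.

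Promoter sequence is shown for 3 genes that the results turn on: Grin2c and Grm3, the 2 with no overlap between the groups, and Gria2, the one that differed most between replicate numbers. Each is the 250 bases before the RefSeq start in build GRCm38.p6, on the minus strand, at chr11:115267244-115267493 for Grin2c, chr5:9725353-9725602 for Grm3 and chr3:80802836-80803085 for Gria2. Capitals mark AGGTCA, a half-site bound by the vitamin D receptor with its retinoid X receptor partner, in Grin2c. In Gria2 they mark AGCACCNNGGACAG, the core of RE1, the element through which the repressor REST is known to silence neuronal genes in other cells. The RE1 search was chosen after the values were seen.
Grin2c: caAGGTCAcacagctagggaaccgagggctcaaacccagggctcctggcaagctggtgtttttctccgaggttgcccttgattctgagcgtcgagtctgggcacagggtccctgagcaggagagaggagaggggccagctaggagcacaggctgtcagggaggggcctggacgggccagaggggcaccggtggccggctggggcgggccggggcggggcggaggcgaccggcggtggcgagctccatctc
Grm3: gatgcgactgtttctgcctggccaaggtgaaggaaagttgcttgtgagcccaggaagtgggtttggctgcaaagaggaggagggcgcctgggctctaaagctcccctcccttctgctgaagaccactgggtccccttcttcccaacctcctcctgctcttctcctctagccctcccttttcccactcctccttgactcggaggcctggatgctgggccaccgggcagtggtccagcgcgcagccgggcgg
Gria2: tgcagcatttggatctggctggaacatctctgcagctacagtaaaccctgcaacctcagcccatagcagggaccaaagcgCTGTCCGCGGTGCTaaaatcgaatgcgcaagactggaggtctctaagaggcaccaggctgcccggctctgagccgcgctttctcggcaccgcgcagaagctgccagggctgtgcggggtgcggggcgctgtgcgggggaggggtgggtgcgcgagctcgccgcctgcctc

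Both strands of these windows were searched for every gene in the RefSeq table. AGGTCA stood at -248 from the Grin2c start. Of the 20 member genes with a promoter entry, which had 25 promoters, 2 held it (Grin2c and Cacng8). The share over all entries, counted per promoter rather than per gene, was 14.0% of 32851. The exact repeat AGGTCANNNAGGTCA, a strict form of paired half-sites for the vitamin D receptor, was in 0 of the 20 genes. It was in only 2 of the 32851 promoters (0.0061%), so its absence from the 20 genes says little. Looser forms of the repeat were not searched. The RE1 core lay on the opposite strand at -170 to -157 of Gria2, and it was in 1 of the 20 genes and in 15 of the 32851 promoters, or 0.0457%. These matches describe letters in a short window and say nothing of binding.

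The NMDA receptor subunits included the gene with the largest difference. Grin2c encodes GluN2C, a subunit best known from cerebellar granule cells that gives channels with weak magnesium block. Its log2 intensity was 8.74, 8.46 and 7.76 in 1,25D cultures 1, 2 and 3, against 7.61, 7.54 and 7.32 in controls 1, 2 and 3. All 3 treated arrays lay above all 3 controls, with treated number 3 closest to them. The mean was 8.32 ± 0.51 in 1,25D cultures and 7.49 ± 0.15 in controls (SD, n = 3 each), a log2 difference of 0.83 ± 0.24 (SE, 1.78-fold) with limma adjusted p = 1.00 without the block and 0.226 with it.

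The difference in Grin2c was 1.14, 0.92 and 0.44 at replicate numbers 1, 2 and 3. Over 18 alternative settings its size stayed between 0.62 and 1.11, and the adjusted p lay between 0.030 and 1.00. It passed in 2 of them, both with the block: without replicate 3, from 2 pairs (log2 difference 1.03, adjusted p = 0.030), and with array weights, a setting added after seeing the data (0.92, adjusted p = 0.042). Both settings also called more of all genes than the fit as reported, with the counts given in the last section. Replicate number 3, left out in the first, had the smallest difference of Grin2c. The other 30 genes passed in no setting.

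The remaining NMDA subunits had smaller differences. Grin2b, the GluN2B subunit that predominates in embryonic forebrain, had 6.95, 7.47 and 7.79 in 1,25D cultures, against 6.74, 7.59 and 7.86 in controls. Grin2a, the GluN2A subunit that becomes prominent after birth, had 6.93, 7.49 and 7.95 in 1,25D cultures, against 7.36, 7.79 and 7.71 in controls. Grin3a, a glycine-binding subunit that lowers calcium permeability, had 7.57, 8.58 and 8.49 in 1,25D cultures, against 7.71, 8.75 and 7.97 in controls. The groups overlapped for all 3, and for each the number 1 arrays were the lowest of their group.

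Grin2d and Grin3b were steady across the arrays. Grin2d, a subunit known from embryonic brainstem and interneurons, had 7.15, 7.30 and 7.16 in 1,25D cultures, against 7.16, 7.06 and 6.99 in controls. Its log2 difference was 0.13, with a 95% limma interval from -0.10 to 0.36. Grin3b, the second glycine-binding subunit, had 7.24, 7.37 and 7.20 in 1,25D cultures, against 7.15, 7.19 and 7.21 in controls, a difference of 0.09 with an interval from -0.13 to 0.30. Over the 6 NMDA genes the median difference was 0.08, and 5 of them had a higher mean in treated cultures.

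Grm3 stood next to Grin2c. It encodes mGlu3, a group II metabotropic receptor that couples to Gi/o proteins and is made by astrocytes as well as neurons. Its log2 intensity was 7.79, 7.30 and 7.35 in 1,25D cultures, against 7.14, 7.03 and 7.03 in controls. The groups did not overlap, and treated number 1 was the highest array. The log2 difference was 0.42 ± 0.14 (SE, 1.34-fold), or 0.66, 0.28 and 0.32 by replicate number, with limma adjusted p = 1.00 without the block and 0.51 with it. Of the 31 genes, 2 were higher without overlap, where 2.63% of all genes were, and 0 were lower without overlap, where 1.52% were.

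Of 10 astrocyte markers, 9 had a lower mean in treated cultures, the list's median difference was -0.07, and none passed the test. The summed intensity of the 10 markers ranged from 42248 to 54637 in 1,25D cultures and from 44578 to 55348 in controls. By replicate number the median difference of these markers was -0.23, 0.02 and 0.00, against 0.66, 0.28 and 0.32 for Grm3 and 1.14, 0.92 and 0.44 for Grin2c. The part of astrocyte content in the levels of Grm3 and Grin2c was not tested.

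The other metabotropic receptors differed little. Grm2, the second group II receptor, had 8.15, 8.14 and 7.86 in 1,25D cultures, against 8.09, 7.88 and 7.77 in controls, with the treated array higher at each replicate number by 0.06 to 0.26. Grm5, the group I receptor that raises inositol phosphates and calcium, had 7.73, 7.72 and 7.95 in 1,25D cultures, against 8.13, 7.70 and 7.90 in controls. Its difference of -0.11 came from number 1 at -0.40, with 0.02 and 0.05 at numbers 2 and 3.

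Most group III receptors restrain transmitter release. Grm4 had 7.83, 8.46 and 7.86 in 1,25D cultures, against 7.88, 8.65 and 7.61 in controls, and number 2 was highest in both groups. Grm6, the receptor of retinal ON bipolar cells, had 7.10, 6.86 and 7.005 in 1,25D cultures, against 7.01, 6.82 and 6.86 in controls. Grm8, a presynaptic receptor, had 6.38, 6.36 and 6.71 in 1,25D cultures, against 6.39, 6.22 and 6.46 in controls. Grm7 was dim, below the lower quartile of genes as was Grm8, with a difference of 0.01 ± 0.10 (SE). The groups overlapped for each of the 4, whose median difference was 0.05.

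Grid1 encodes GluD1, a delta receptor that binds cerebellins and organises synapses rather than carrying fast current. Its log2 intensity was 7.85, 8.43 and 8.54 in 1,25D cultures, against 8.24, 8.68 and 8.69 in controls. The groups overlapped, yet the treated array was the lower one at each replicate number, by -0.39, -0.25 and -0.14. The log2 difference was -0.26 ± 0.21 (SE) with limma adjusted p = 1.00 without the block, and its SE was 0.08 with the block (adjusted p = 0.73). Without 1,25D replicate 1 the difference was -0.048, and without control replicate 1 it was -0.41. Among the 31 genes, 2 were lower in the treated array at all 3 replicate numbers (Grid1 and Grik4), where 12.3% of all genes were. Those higher at all 3 were Grin2c, Grm2, Grm3 and Grm6, or 4 of 31, where 14.8% of all genes were.

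**Figure D2:**
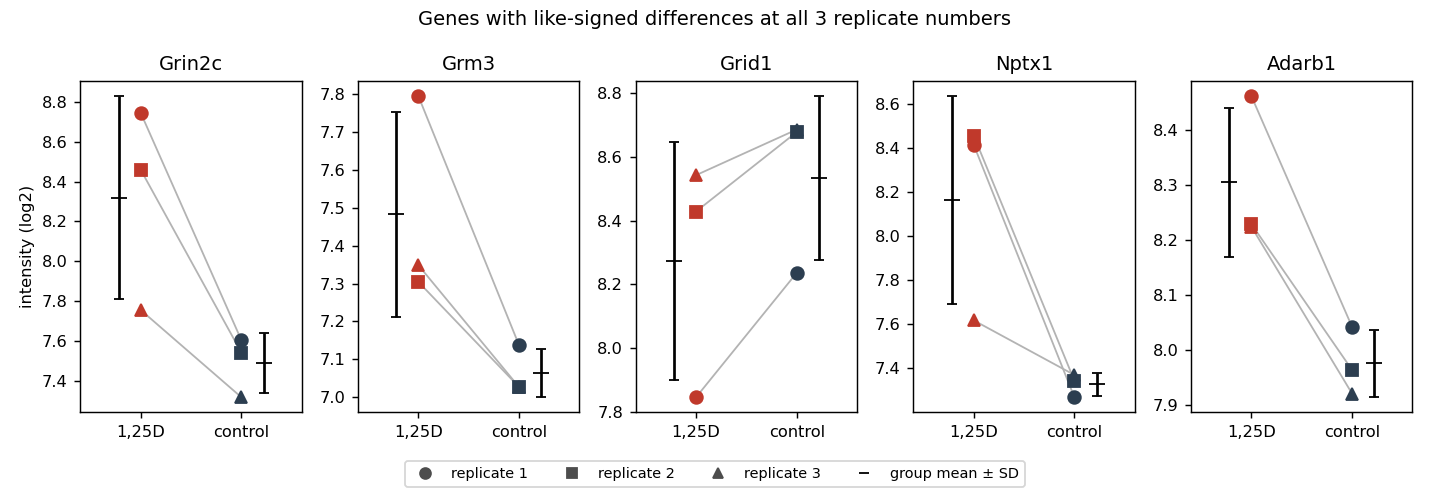
Log2 intensity (vertical axis, a separate range in each panel) in 1,25D and control arrays for Grin2c, Grm3, Grid1 and the partner genes Nptx1 and Adarb1. Lines join arrays of equal replicate number and bars give the group mean ± SD; Grin2c and Nptx1 share a treated number 3 array that lies closest to the controls.

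AMPA receptor subunits form the channel core of most excitatory synapses. Gria3, encoding GluA3, had 11.18, 11.16 and 11.45 in 1,25D cultures, against 11.01, 11.26 and 11.82 in controls. Gria1, encoding GluA1, a subunit delivered to synapses during potentiation, had 10.46, 10.84 and 10.84 in 1,25D cultures, against 10.89, 10.78 and 10.22 in controls. The groups of both genes overlapped. For Gria1 the difference by replicate number ran from -0.42 to 0.62, with opposite signs at numbers 1 and 3, around a mean of 0.09.

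Gria2 encodes GluA2, the subunit whose RNA-edited pore residue keeps AMPA receptors impermeable to calcium. Its log2 intensity was 7.71, 8.77 and 10.16 in 1,25D cultures, against 7.99, 8.99 and 10.15 in controls. Each treated array sat beside the control of the same number, while number 3 lay 4.95-fold above number 1 on average. The log2 difference between treated and control cultures was -0.16 ± 0.69 (SE) without the block, and its SE was 0.09 with it (limma adjusted p = 1.00 and 0.89). Gria4, encoding GluA4, had a difference of 0.11 ± 0.19 (SE), and the median over the 4 AMPA genes was -0.01.

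Replicate number was tested across all genes with the F test of the blocked limma fit, a test chosen after the values were seen. Of the 31 genes, 3 passed at an adjusted p under 0.05, against 1.73% of all genes. They were Gria2 (adjusted p = 0.0095), Grin2b (0.041) and Grik3, encoding the kainate subunit GluK3 (0.041). Grik3 had 7.67, 8.40 and 8.75 in 1,25D cultures, against 7.94, 8.35 and 8.75 in controls. All 3 were lowest in the number 1 array and highest in the number 3 array of both groups, a pattern of 5 of the 31 genes (also Grid1 and Neto1) and of 6.04% of all genes. The number 1 array was the lowest of both groups for 10 of the 31, against 13.2% of all genes.

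The level of part of the neuron markers differed in the same order. The mean log2 intensity of 13 neuron markers was 7.40, 7.89 and 8.22 in 1,25D cultures, against 7.49, 8.00 and 8.17 in controls. Their summed intensity ranged from 3094 to 5811 in 1,25D cultures and from 3626 to 5772 in controls, lowest at number 1 in both, and the dimmest were Nefm and Nefl. Dcx, a marker of young migrating neurons, had 6.78, 8.80 and 9.76 in 1,25D cultures, against 6.83, 9.10 and 9.39 in controls (limma F test of the number, adjusted p = 0.011). In the same test 4 of the 13 neuron markers passed (Dcx, Ina, Snap25 and Stmn2), and 7 of the 13 had the order 1, 2, 3 in both groups. Stmn2, whose number 1 arrays held the identical value, was lowest at number 2, and Map2 was highest there on average. Of markers of GABAergic neurons 2 of 8 passed (Dlx1 and Gad2), of glutamatergic neurons 0 of 6, of the oligodendrocyte lineage 1 of 9 (Olig1, adjusted p = 0.037) and of astrocytes 0 of 10. Olig1 averaged 9.19, 9.77 and 10.20 at numbers 1, 2 and 3. The part of neuron content, or of other cell types, in the levels of Gria2, Grin2b and Grik3 was not tested.

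**Figure D3:**
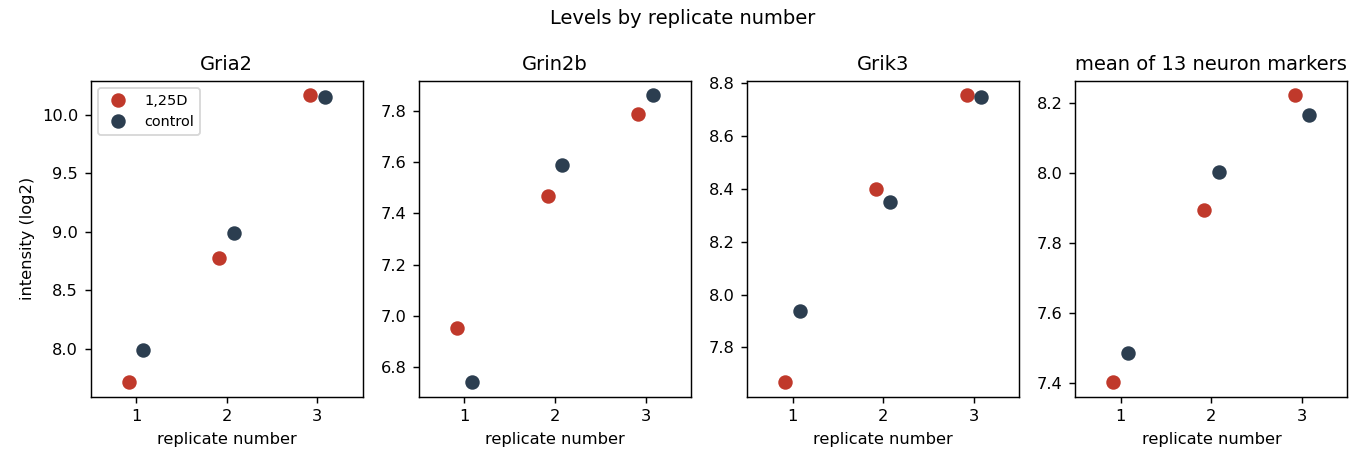
Log2 intensity (vertical axis, a separate range in each panel) by replicate number for Gria2, Grin2b, Grik3 and the mean of 13 neuron markers, with 1,25D arrays drawn left of controls. In each panel the arrays numbered 1 are the lowest and those numbered 3 the highest in both groups.

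**Figure D4:**
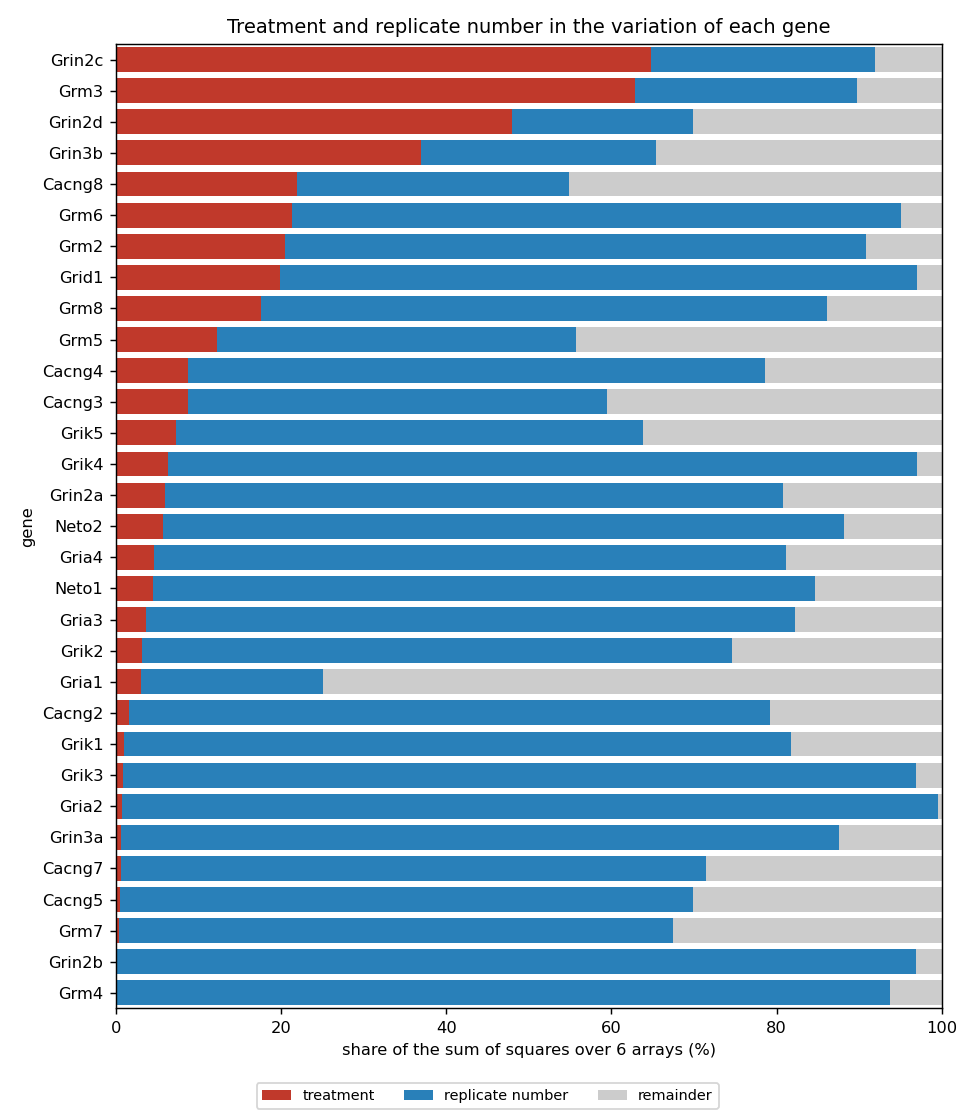
Share of each gene's sum of squares over the 6 arrays (horizontal axis, %) that falls to treatment, to replicate number and to the remainder, with genes ordered by the treatment share. Treatment takes 64.8% for Grin2c and 62.9% for Grm3, and replicate number takes 98.8% for Gria2.

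Divided into sums of squares, treatment accounted for a median of 5.71% and replicate number for 71.4% of the variation of the 31 genes, against 7.28% and 65.5% over all genes. Treatment took the larger share in 4 genes, Grin2c (64.8%), Grm3 (62.9%), Grin2d (48.0%) and Grin3b (37.0%). In the other 27 replicate number took more, as it did for 87.5% of all genes. The shares are not on an equal footing, since treatment compares 2 groups and replicate number compares 3. In noise alone, replicate number would therefore tend to take the larger share. These shares are descriptions of 6 arrays and carry no test.

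Kainate receptor genes had no member with separated groups. Grik5, encoding the high-affinity subunit GluK5, was even on all arrays, with 9.97, 10.12 and 9.87 in 1,25D cultures, against 10.00, 9.93 and 9.89 in controls. Its difference was 0.04, with a 95% limma interval from -0.19 to 0.28. Grik4, encoding the other high-affinity subunit GluK4, had 9.08, 9.45 and 8.89 in 1,25D cultures, against 9.32, 9.62 and 8.90 in controls. Both groups were highest at number 2, and the treated array was lower by 0.24, 0.16 and 0.01 at numbers 1, 2 and 3.

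Grik2, encoding GluK2, the subunit best known from hippocampal mossy fibre synapses, had differences of -0.70, -0.17 and 0.39 by replicate number. The sign thus turned between numbers, and the mean was -0.16 ± 0.32 (SE). Grik1, encoding GluK1, was dim at 6.16 ± 0.13 in 1,25D cultures and 6.15 ± 0.07 in controls (SD, n = 3 each), below the lower quartile of genes. The 5 kainate genes had a median difference of -0.07.

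NETO proteins set the kinetics of kainate receptors. Neto2 had 10.39, 11.57 and 10.90 in 1,25D cultures, against 10.90, 11.43 and 11.09 in controls. Number 2 was highest in both groups, and the groups overlapped. Neto1, which also associates with NMDA receptors, had 6.37, 6.45 and 7.46 in 1,25D cultures, against 6.18, 6.68 and 6.89 in controls, and treated number 3 was the highest array. The log2 differences were -0.18 ± 0.28 for Neto2 and 0.18 ± 0.31 for Neto1 (SE).

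Among the TARPs, Cacng7, encoding the type II member gamma-7, had 11.36, 11.55 and 11.63 in 1,25D cultures, against 11.47, 11.33 and 11.81 in controls. Cacng5, encoding the other type II member gamma-5, had 9.78, 9.08 and 9.22 in 1,25D cultures, against 9.76, 8.49 and 10.03 in controls. Its controls alone spanned 8.49 to 10.03, and the differences by replicate number were 0.02, 0.59 and -0.81. Type II TARPs modulate AMPA receptor gating. The groups overlapped for both genes.

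Cacng8, encoding gamma-8, the TARP known from hippocampus, had 8.39, 8.40 and 8.42 in 1,25D cultures, against 8.42, 8.37 and 8.11 in controls, with control number 3 the low array. Cacng2, encoding stargazin, the prototype of the family, had a difference of 0.03 ± 0.13 in its brighter row and 0.02 in its second row. Cacng4 had a difference of 0.11 ± 0.15 and Cacng3 of -0.10 ± 0.14 (SE), and Cacng3 had the dimmest probe set of the 31 genes, at the 9.8th percentile in controls. The TARP median was 0.00, and 3 of the 6 genes had a higher mean in treated cultures.

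**Figure D5:**
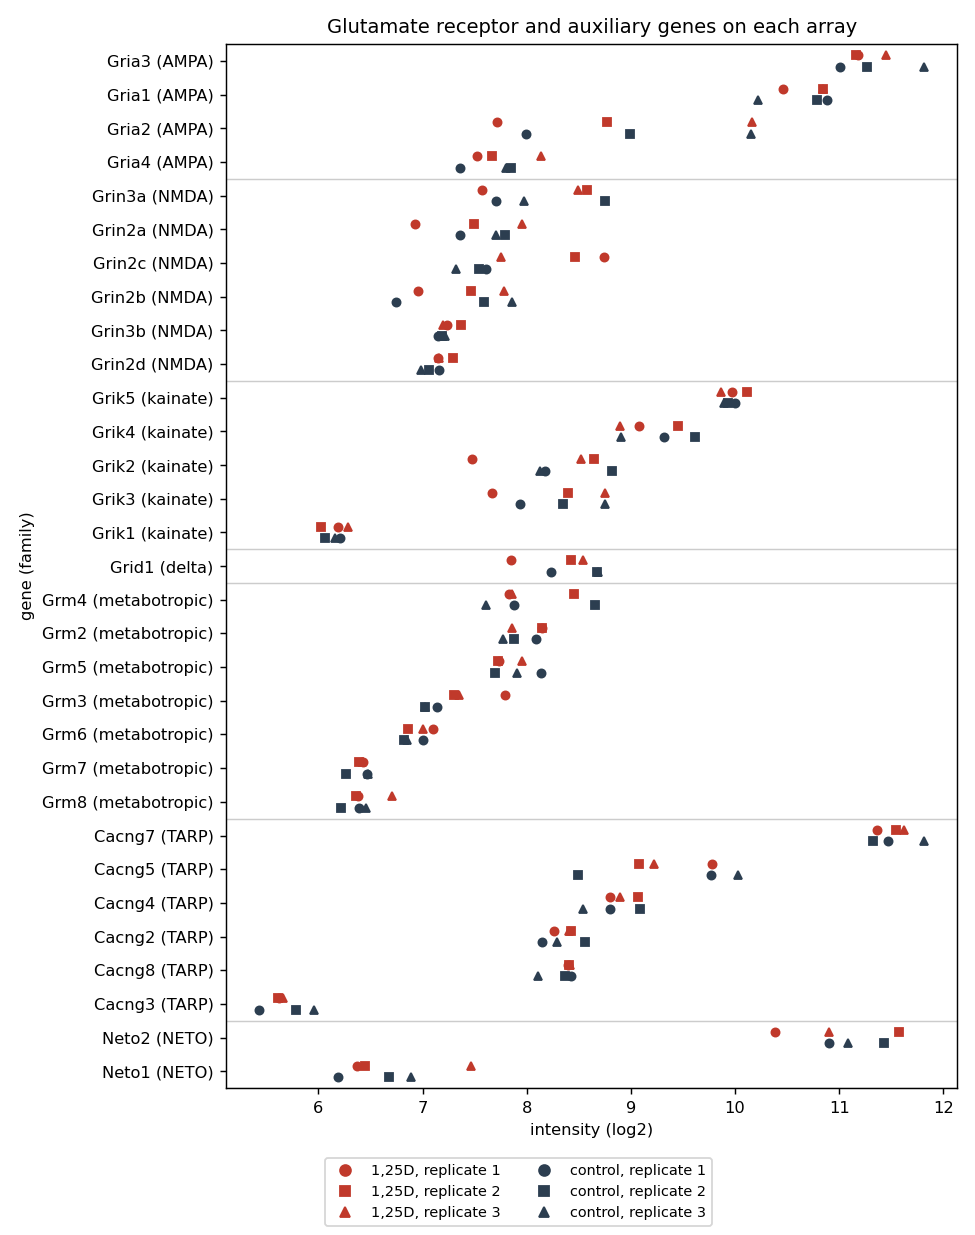
Log2 intensity (horizontal axis) of each of the 31 genes (vertical axis, by family and then by control mean) on the 3 1,25D arrays, drawn above, and the 3 control arrays. Control means run from 5.73 for Cacng3 to 11.54 for Cacng7, and the red and dark symbols are separated for Grin2c and Grm3.

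Genes that anchor, cluster or signal from these receptors were read from 4 lists with 71 genes, 64 of them measured. None passed without the block (0.0251% of all genes) or with it (0.0903%), 30 had a higher and 34 a lower mean in 1,25D cultures, and the median difference was -0.01. Of the 64, 6 were higher without overlap, where 2.63% of all genes were, and 2 were lower, where 1.52% were. Among other auxiliary and surface proteins, Nptx1, a secreted pentraxin that clusters AMPA receptors, had 8.42, 8.46 and 7.62 in 1,25D cultures, against 7.27, 7.34 and 7.37 in controls. As for Grin2c, treated number 3 lay nearest the controls and the groups did not overlap. The log2 difference was 0.84 ± 0.22 (SE, 1.78-fold), with limma adjusted p = 1.00 without the block and 0.43 with it. Without replicate 3 it passed in the blocked fit, the 1 partner gene to do so in any setting. That setting called more of all genes than the fit as reported, and number 3 had the smallest difference of Nptx1 (0.25). Olfm2, an olfactomedin found in AMPA receptor complexes, had a difference of 0.28 ± 0.11 (SE), and 11 of the 18 genes in this list were above 0.

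In the list of postsynaptic kinases, phosphatases and related enzymes, Adarb1 encodes ADAR2, which edits the GluA2 pore codon in RNA. It had 8.46, 8.23 and 8.22 in 1,25D cultures, against 8.04, 7.96 and 7.92 in controls, so the groups did not overlap. The log2 difference was 0.33 ± 0.10 (SE, 1.26-fold), with limma adjusted p = 1.00 without the block and 0.51 with it. Editing itself cannot be read from these probes. Camk2b, a subunit of the calmodulin-dependent kinase of the postsynaptic density, had 9.38, 9.03 and 9.16 in 1,25D cultures, against 9.58, 9.36 and 10.05 in controls, a difference of -0.48 ± 0.18 (SE), and 10 of the 14 genes in this list were below 0.

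The scaffold list had 14 of 22 genes above 0 and a median difference of 0.02. Its smallest unadjusted p-values belonged to Dlgap2 and Dlgap1, partners of PSD-95, with differences of 0.16 ± 0.09 and 0.25 ± 0.16 (SE). The list of metabotropic signalling partners had 9 of 10 genes below 0 and a median of -0.09, where 9375 of all 19938 genes were below 0. The lists are described by counts and medians and were not tested as sets. Rgs4, which speeds the shut-off of G proteins, had a difference of -0.24 ± 0.10, and Plcb4, a phospholipase C downstream of group I receptors, of -0.30 ± 0.23 (SE). Each had limma adjusted p = 1.00 without the block, and none of the 4 genes passed with it.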

How the data were processed

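The authors deposited linear intensities per transcript cluster, made by RMA; the submitters' processing notes name Affymetrix Expression Console and no version. RMA gives no detection call. Log2 was taken of each intensity. Of 35556 rows, 21789 had 1 gene symbol in GEO's platform annotation, 1621 several and 12146 none, and the brightest row stood for each of 19938 genes. The comparison, 1,25D minus control, used limma 3.58.1 in R 4.3.3 (lmFit, eBayes), with Benjamini-Hochberg adjustment over the 19938 genes, a threshold of 0.05 and limma's own 95% intervals. An exact permutation test of 3 arrays against 3 cannot go below p = 0.1. The labels do not state separate animals for the replicates, so p-values cover the spread among these arrays, which may be partly technical.

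The labels do not say that equal replicate numbers mark a shared culture. The reported fit therefore has no block. A fit with the number as a block is given beside it, because deviations from group means correlated at 0.51, 0.65 and 0.46 for numbers 1, 2 and 3. Values on every array are given for genes past the threshold, the 2 brightest of each larger family, Grid1, Neto1 and Neto2, the 10 smallest p-values, and genes with 3 like-signed differences averaging at least 0.25. Gria2, Grin2b, Grik3 and Dcx were added after their values were seen, as were the replicate number test and 2 alternatives. In each partner list the 2 smallest p-values were named. The genes and lists were chosen with earlier results of these data known. Promoters are from RefSeq, with 20 of the 31 genes matched by symbol. The fits were tested on simulated data.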

Additional observations from a re-analysis of the deposited data

How the results depend on the processing

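The count of 0 among the 31 genes held in the fit with the replicate block, after quantile normalisation, after median centring, without the dimmest 25% of genes, with the mean of all rows of a gene, with an intensity trend and robust variance, with array weights and without any 1 array. It was 1 (Grin2c) in the blocked fit without replicate 3 and with the block and array weights, and with 1 array or number left out it ranged from 0 to 1, as did the count of partner genes (Nptx1). The count over all genes was 5, with 18 in the blocked fit, 25 with the block and quantile normalisation and 40 with the block and array weights. With 1 array or 1 number left out it ranged from 0 to 45, being 0 without control replicate 3 or 1,25D replicate 3, 1 without 1,25D replicate 1 and 2 without each other array; it was 40, 3 and 45 in the blocked fit without replicates 1, 2 and 3. The median difference of the 31 genes ranged from -0.023 to 0.10 over these omissions. The count that differed between replicate numbers was 3 as reported, 4 after quantile normalisation and 3 after median centring.

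Over the 9 omissions of an array or a number the sign of the difference turned for 22 genes. In the other 9 the size still varied, from 0.62 to 1.11 for Grin2c, 0.080 to 0.20 for Grin2d, 0.034 to 0.14 for Grin3b, -0.41 to -0.048 for Grid1, 0.065 to 0.23 for Grm2, 0.26 to 0.51 for Grm3, 0.038 to 0.16 for Grm6, 0.011 to 0.19 for Grm8 and 8.2e-05 to 0.17 for Cacng8. The lowest and highest values of those that turned were -0.18 and 0.34 for Gria1, -0.80 and 0.42 for Gria2, -0.28 and 0.13 for Gria3, -0.074 and 0.25 for Gria4, -0.41 and 0.10 for Grin2a, -0.32 and 0.24 for Grin2b, -0.15 and 0.39 for Grin3a, -0.041 and 0.087 for Grik1, -0.43 and 0.21 for Grik2, -0.31 and 0.23 for Grik3, -0.33 and 0.031 for Grik4, -0.025 and 0.10 for Grik5, -0.22 and 0.31 for Grm4, -0.22 and 0.037 for Grm5, -0.061 and 0.045 for Grm7, -0.059 and 0.15 for Cacng2, -0.24 and 0.021 for Cacng3, -0.025 and 0.25 for Cacng4, -0.54 and 0.30 for Cacng5, -0.15 and 0.11 for Cacng7, -0.17 and 0.38 for Neto1, -0.49 and 0.10 for Neto2. The sign also turned after quantile normalisation (-0.028 for Grin2b, -0.012 for Grik1, -0.025 for Grm7, without and with the block), after median centring (-0.018 for Grin2b, -0.0055 for Grik1, -0.021 for Grm4, -0.015 for Grm7), with array weights (-0.0080 for Grik1, -0.018 for Grm4, 0.024 for Cacng5, 0.023 for Cacng7) and with the block and array weights (-0.024 for Gria1, -0.042 for Grin3a, -0.0087 for Grik1, -0.066 for Grm4, 0.14 for Cacng5, 0.029 for Cacng7). In each of these the difference as reported was not past the threshold, and the cause was not tested. Where a number is left out, a fit holds 2 pairs; where an array is left out, its group holds 2. RMA compresses differences of dim genes, which limits what Cacng3, Grik1, Grm7, Grm8 and Neto1, all below the lower quartile, can show.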
